A study of Mus musculus with 9 samples.

Results

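Histone H3 lysine 27 acetylation (H3K27ac) was examined at 10 genes of the transforming growth factor-beta (TGF-beta) pathway in naive CD8+ T cells. The genes were listed by name: the ligand Tgfb1, the receptors Tgfbr1, Tgfbr2 and Tgfbr3, the signal transducers Smad2, Smad3 and Smad4, the inhibitor Smad7, and the corepressors Ski and Skil. Each name matched 1 gene among the 22380 annotated protein-coding genes of the mm9 mouse genome. All 10 had H3K27ac islands in both genotypes, as did 16487 protein-coding genes in all.

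All mice carried the hCD2-Cre transgene and the Rosa26 GFP reporter allele on the C57BL/6 background. WT mice had intact alleles (Tcf7 +/+ and Lef1 +/+), and dKO mice had both genes floxed (Tcf7 fl/fl together with Lef1 fl/fl), so that their T cells lost the transcription factors Tcf1 and Lef1. Mice were young adults of both sexes. The transgene acts mainly in mature peripheral T cells and excises the alleles in most but not all of them, so cells were sorted by the GFP that Cre switches on. Splenic GFP+TCRbeta+CD62L hi CD44 lo-med CD8+ T cells were sorted and subjected to H3K27ac ChIP-seq, in 4 WT and 3 dKO samples, with 1 input sample for each genotype.

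TGF-beta is secreted in a latent form that must be activated before it can bind its receptors. Active ligand brings together the type II receptor, encoded by Tgfbr2, and the type I receptor, encoded by Tgfbr1, whose kinase phosphorylates Smad2 and Smad3. These partner with Smad4 and enter the nucleus, where the complex binds DNA beside other transcription factors. Smad7 blocks the type I receptor, and Ski and SnoN (encoded by Skil) hold SMAD complexes in a repressive state. In T cells the pathway maintains tolerance and quiescence, sustains survival of naive CD8+ T cells and directs the tissue residency of memory cells. H3K27ac marks active enhancers and promoters, so the data here describe the chromatin at these genes and not their transcripts or proteins.

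The replicates of a genotype were pooled before islands were called, so each genotype gave 1 list of islands with a read count for each. No spread between replicates could be estimated, no difference below was tested, and each interval given is a counting interval that leaves out variation between mice. There were 65563 islands with 82668007 counts for WT and 82213 islands with 57665047 counts for dKO. A gene's window ran from 50 kb upstream of its outermost annotated start site to the end of its body, and every island that shared at least 1 base with it was counted whole. Counts were divided by the total of their list and are given per 1000000 island counts (CPM). The same value was also divided by the kilobases that the islands covered (CPM per kb, called density), since the count of an island grows with its width. The log2 of dKO over WT is called the count ratio for CPM and the density ratio for CPM per kb. A ratio of at least 1.5-fold between dKO and WT, which is 0.58 on the log2 scale at 2 decimals (0.585 at 3), was called a difference.

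With the windows described above, Smad3 stood apart from the other 9 genes. Its scaled count in dKO was 1.48 times that in WT (count ratio 0.56, 95% counting interval 0.54 to 0.58), and its density was 1.46 times that in WT (density ratio 0.54, 0.52 to 0.56). Both values lay just under the 1.5-fold threshold. Hence 0 of 10 genes were called higher in dKO and 0 of 10 lower, by either measure. Among the 16487 genes with islands in both lists, 11.5% were called higher and 11.5% lower by counts. By density, 0.425% were called higher and 9.28% lower.

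The 10 genes had a median count ratio of -0.17 and a median density ratio of -0.17, and all genes had medians of -0.03 and -0.16. Ratios were below 0 in 8 of the 10 genes by counts and in 7 by density, beside 52.6% and 79.4% of all genes. The all-gene median density ratio of -0.16 is thus the general level of the dKO list, against which a gene is best read. When ratios were centred on the all-gene median, Smad3 reached 0.59 by counts and 0.71 by density and passed the 1.5-fold threshold by both. That centring changed the shares of all genes called by density to 1.21% higher and 4.58% lower. Of the 16487 genes, 87.9% had a lower log2 ratio than Smad3 by counts and 99.4% by density, where Smad3 ranked 96 from the top. The next highest of the 10 genes by density was Tgfbr1, at 0.11.

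**Figure D1:**
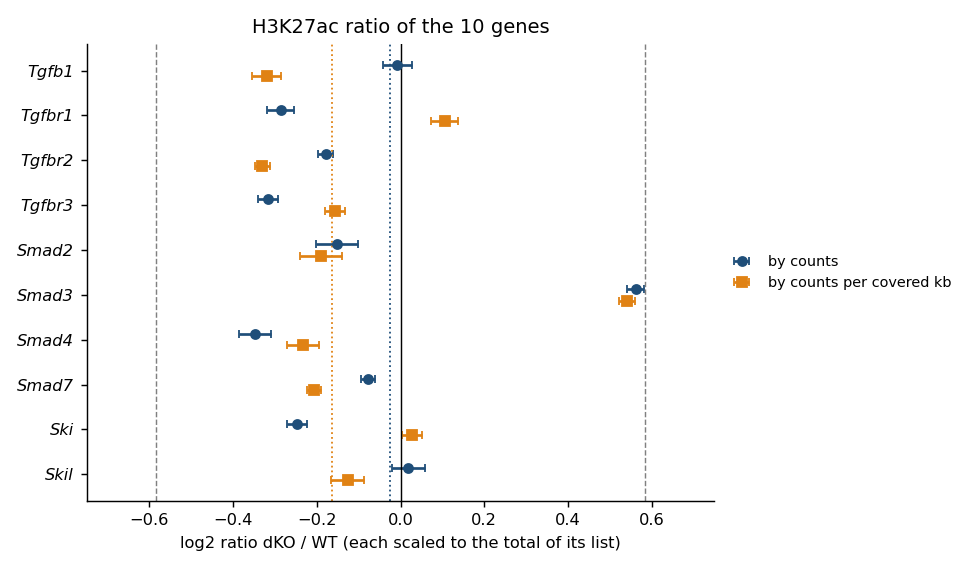
Log2 ratio of dKO to WT H3K27ac for each of the 10 genes, by counts (circles) and by counts per covered kb (squares). Bars are 95% counting intervals, dotted lines are the medians of all genes by the measure of the same colour, and dashed lines mark 1.5-fold. Smad3 lies near the right dashed line by both measures, and the other 9 genes lie between -0.35 and 0.11.

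**Figure D2:**
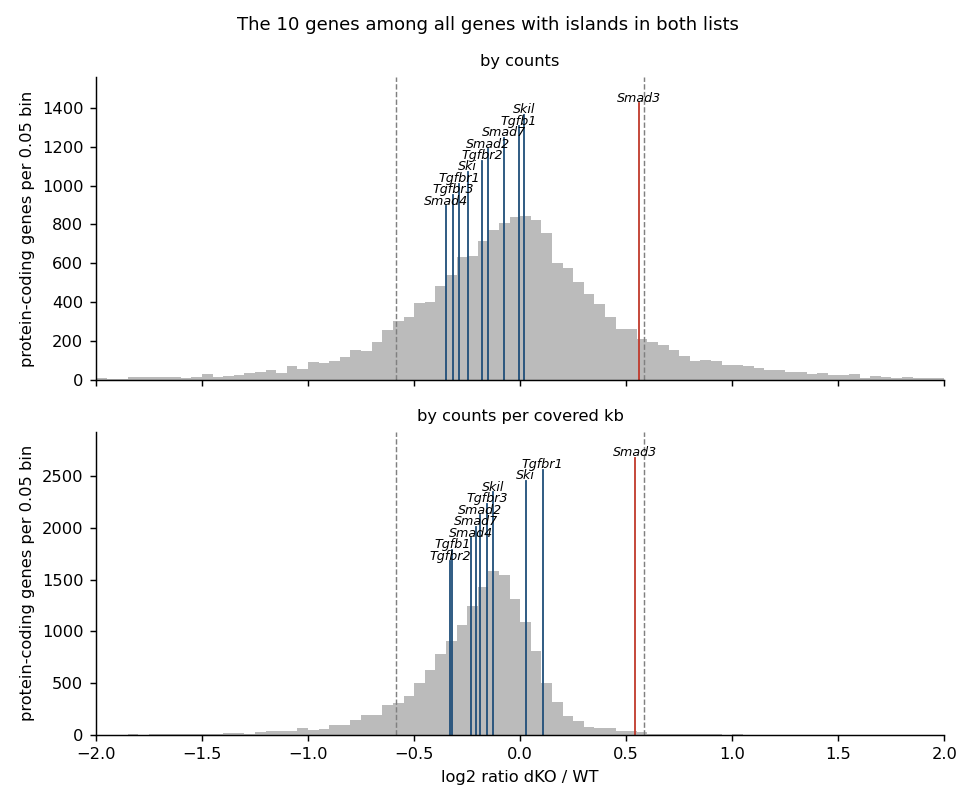
Distribution of the log2 ratio of dKO to WT over the 16487 genes that have islands in WT and in dKO, in bins of 0.05, by counts (top) and by counts per covered kb (bottom), with the 10 genes marked by lines whose height has no meaning. Dashed lines mark 1.5-fold, and 272 genes by counts and 7 by density lie beyond the axis. Smad3 sits inside the broad upper flank by counts and in the thin upper tail per kb.

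The levels of the genes differed widely in WT cells. Smad7 had the most scaled counts, at 869 CPM, followed by Tgfbr2 at 777 CPM, and they ranked 14 and 28 among the 16487 genes by WT counts. Smad3 (492 CPM), Tgfbr3 (476 CPM) and Ski (447 CPM) formed a middle group. Tgfbr1 (254 CPM), Tgfb1 (197 CPM), Smad4 (190 CPM), Skil (155 CPM) and Smad2 (98.5 CPM) had the fewest. A window with a longer gene can hold more islands, so levels between genes are better compared per kb. On that scale the WT order was Smad7 at 4.35, Tgfbr2 at 3.88, Tgfb1 at 3.71, Ski at 3.43, Skil at 3.15, Smad3 at 2.88, Smad2 and Smad4 at 2.61 each, Tgfbr1 at 2.32 and Tgfbr3 at 2.29 CPM per kb. The median of all genes was 2.74 CPM per kb in WT and 2.38 in dKO. In dKO Smad3 moved to the top of the 10 genes, at 4.19 CPM per kb, above Smad7 at 3.77 and Ski at 3.495.

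**Figure D3:**
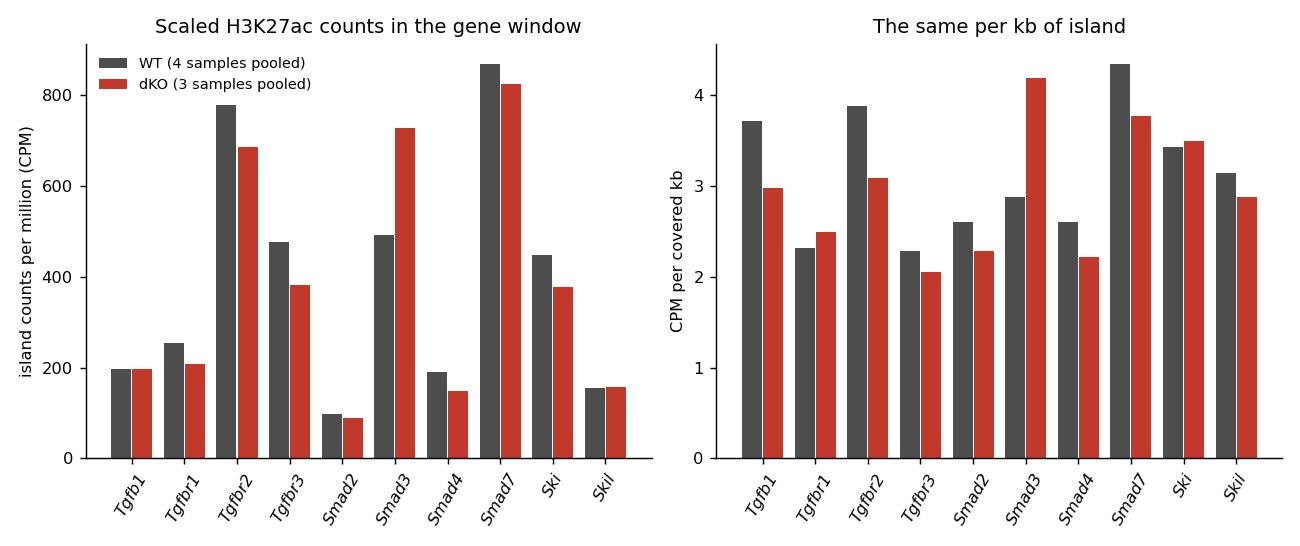
Scaled H3K27ac counts in the window of each gene, in CPM (left) and CPM per kb (right), for the pooled WT list and the pooled dKO list. There are no error bars because each bar is 1 pooled list. Smad3 is the gene whose dKO bar exceeds its WT bar most clearly in both panels.

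Islands within the windows were also arranged differently. The lists differed in depth, at 82668007 counts in WT and 57665047 in dKO. The part of depth in the number, width and breaks of islands was not tested. Island number was larger in dKO for 6 of the 10 genes, smaller for 3 and equal for Ski, and 58.3% of all genes had more islands in dKO. Tgfbr3 went from 13 islands to 24 and Smad4 from 11 to 15, whereas Smad3 went from 8 to 3 and Smad7 from 2 to 1. Islands of both lists that shared at least 1 base were merged into regions, which gave 61 regions over the 10 windows. Of these, 48 held islands of both lists, 5 of WT alone and 8 of dKO alone. Over the windows of all 16487 genes there were 62602 such regions, of which 60.4% held both, 11.5% WT alone and 28.1% dKO alone. The count ratio was below 0 in 35 of the 48 shared regions and above 0 in 13, and it was below 0 in 57.0% of the shared regions of all genes. The 1 region over Smad3 held the largest increase in scaled counts, and the regions over the other 9 genes had density ratios between -0.70 and 0.34.

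Smad3 encodes a receptor-activated SMAD that binds DNA directly. It lies on mm9 chromosome 9, 63494574 to 63605801, on the minus strand. In WT 40697 counts over 171.2 kb fell in its window, and in dKO 41907 over 173.6 kb, which is 492 and 727 CPM. The raw counts and the widths of the islands were thus alike, although the dKO list had fewer counts in all. No other protein-coding gene had a start site in the window. On the log2 scale the covered width differed by 0.02. A single dKO island of 139 kb with 38072 counts ran from 63514001 to 63653000, across the promoter and most of the gene body. It ranked 13 by width among the 82213 dKO islands. Over the same stretch the WT list had 6 islands, whose counts taken pro rata came to 35480 over 134.4 kb. Within this stretch the count ratio was 0.62 and the density ratio 0.57, and the level went from 3.19 to 4.75 CPM per kb.

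The WT islands showed how the signal was spread along Smad3. The 8.6-kb WT island over the promoter (63600201 to 63608800) was the highest, with 5163 counts and 7.26 CPM per kb. The 56.8-kb island over the first part of the gene body (63542801 to 63599600) had 18910 counts and 4.03 CPM per kb. The 36-kb island upstream (63617801 to 63653800) had 5878 counts and 1.98 CPM per kb. In dKO the promoter, most of the gene body and the upstream part lay inside the 139-kb island, so the deposited list gives 1 mean level for them. Whether the increase lay at the promoter, in the body or upstream cannot be read from it. The dKO mean of 4.75 CPM per kb was above all WT islands of the window except that of the promoter. With only islands that touched an annotated promoter of the gene, the count ratio was 0.91 and the density ratio 0.27, over 104.2 kb of WT islands and 162.2 kb of dKO islands.

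**Figure D4:**
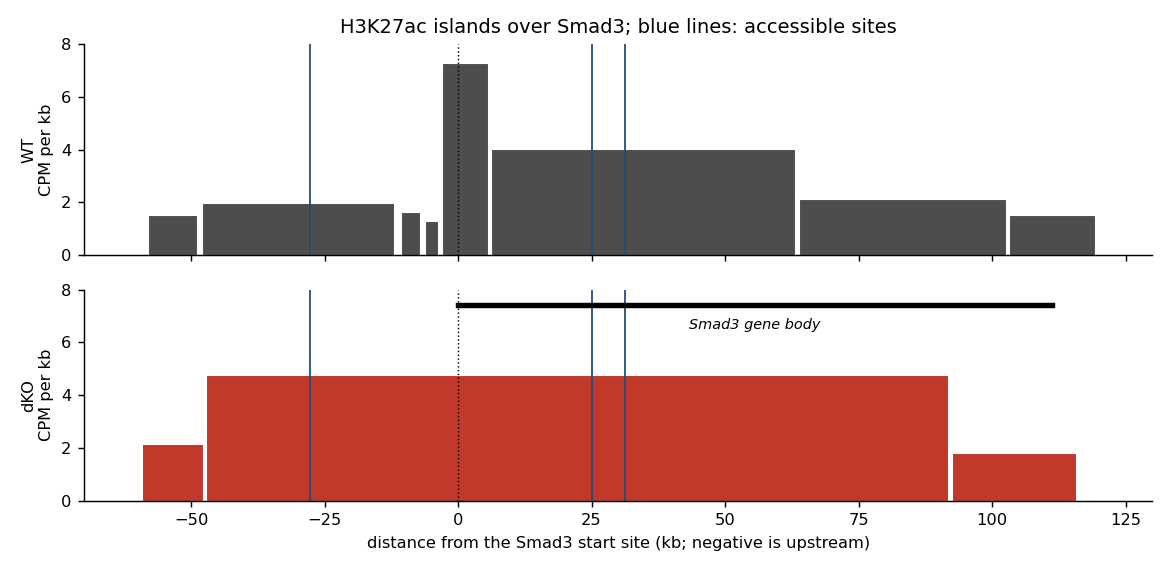
H3K27ac islands over Smad3 in the WT list (top) and the dKO list (bottom), by distance from the start site in kb, with negative values upstream. The height of a block is the mean level of 1 island in CPM per kb, the black bar is the gene body, the dotted line the start site, and the blue lines the 3 accessible sites. The dKO block of 139 kb at 4.75 CPM per kb replaces 6 WT blocks that range from 1.28 to 7.26.

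The study lists 3 sites linked to Smad3 among those with increased chromatin accessibility in dKO cells, measured by DNase-seq in other libraries. Only their positions were used here. Their sequences, read from mm9, are shown because the 139-kb dKO island covers all of them. Up to 300 bases around the centre of a site are printed, on the plus strand, which is opposite to the gene. Capitals mark Tcf/Lef and AP-1 motif matches on either strand. The Tcf/Lef motif was searched as the letters CTTTGAT, the variant CTTTGAA, the variant CTTTGTT and the variant CTTTGTA. The AP-1 motif was searched as the letters TGACTCA and the variant TGAGTCA.
Smad3 site 1 (chr9:63574317-63574616): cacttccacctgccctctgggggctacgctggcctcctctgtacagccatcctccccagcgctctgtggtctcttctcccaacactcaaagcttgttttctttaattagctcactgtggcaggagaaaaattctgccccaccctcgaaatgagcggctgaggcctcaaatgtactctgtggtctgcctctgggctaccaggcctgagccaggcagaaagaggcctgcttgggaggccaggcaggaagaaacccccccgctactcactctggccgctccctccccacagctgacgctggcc
Smad3 site 2 (chr9:63580544-63580843): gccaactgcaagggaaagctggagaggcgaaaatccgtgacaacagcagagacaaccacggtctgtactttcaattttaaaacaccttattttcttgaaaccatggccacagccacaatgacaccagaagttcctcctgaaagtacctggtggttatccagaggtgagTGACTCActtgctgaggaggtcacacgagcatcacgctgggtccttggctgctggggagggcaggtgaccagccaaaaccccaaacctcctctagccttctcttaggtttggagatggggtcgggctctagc
Smad3 site 3 (chr9:63633439-63633583): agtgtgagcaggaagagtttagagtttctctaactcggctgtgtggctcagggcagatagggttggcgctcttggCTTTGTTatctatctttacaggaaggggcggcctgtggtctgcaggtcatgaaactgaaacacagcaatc

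Only the printed bases were searched for motifs. Site 1 (whole extent 63574239 to 63574694) lay in an intron, 31.3 kb downstream of the start site, and its central 300 bases held neither motif. Site 2 (63580543 to 63580843) lay in an intron 25.1 kb downstream and held 1 AP-1 match and no Tcf/Lef match. Site 3 lay 27.7 kb upstream of the gene and held 1 Tcf/Lef match. For comparison, 23.2% of the 45321 windows of 300 bases at the centre of merged regions with islands in both lists held a Tcf/Lef match, and 5.39% an AP-1 match. For windows of 145 bases the shares were 11.9% and 2.60%. The letters CAGAC (SMAD) and TGTGGTT (RUNX) were also searched and are not marked. Each site held 1 CAGAC match and no TGTGGTT match. Of the windows of 300 bases, 51.7% held a CAGAC match and 7.59% a TGTGGTT match, and of those of 145 bases 29.7% and 3.64%. A match is a description of the letters only. Sites 1 and 2 lay in the WT island of 4.03 CPM per kb and site 3 in that of 1.98 CPM per kb, and in dKO all of them lay in the island of 4.75 CPM per kb. The islands are much wider than the sites, so these levels are not those of the sites themselves.

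The stretch that the study lists as a dKO-prepotent super enhancer (SE, a cluster of enhancers with high H3K27ac) at Smad3 ran from 63285401 to 63692600 on chromosome 9. It was the only SE among those listed by the study that overlapped any of the 10 genes. That list holds only differential SEs linked to the study's Tcf1/Lef1 target genes. It cannot show whether further differential SEs of the study lay at the other genes. Since that list was chosen on these same libraries, its direction is not independent evidence. WT had 52944 counts there, in 25 islands over 248.2 kb, and dKO had 59058 counts, in 41 islands over 333 kb (count ratio 0.68, 0.66 to 0.69, density ratio 0.25). The region over Smad3 and the rest of the SE differed in kind. Inside the Smad3 region the count ratio was 0.58 and the density ratio 0.51, and the level went from 2.88 to 4.10 CPM per kb. In the rest of the SE, where Aagab and Iqch start, the count ratio was 0.96, but the covered width went from 77 to 153.6 kb and the density ratio was -0.04. Of these neighbours, Aagab had a count ratio of 0.48 and a density ratio of -0.04, and Iqch had 0.95 and -0.03.

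Promoter sequences of Smad3 and Tgfbr2 are given because these genes had the highest and the lowest density ratio of the 10, although Tgfb1 was within counting error of Tgfbr2. Each is the 250 bases before the outermost start site, in the direction of the gene, with the same motifs in capitals.
Smad3 promoter (chr9:63605802-63606051, minus strand): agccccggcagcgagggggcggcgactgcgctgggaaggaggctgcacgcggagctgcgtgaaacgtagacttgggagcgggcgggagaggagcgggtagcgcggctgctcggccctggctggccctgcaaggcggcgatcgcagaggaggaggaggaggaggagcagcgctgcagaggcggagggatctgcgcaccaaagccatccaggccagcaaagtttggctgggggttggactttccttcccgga
Tgfbr2 promoter (chr9:116084384-116084633, minus strand): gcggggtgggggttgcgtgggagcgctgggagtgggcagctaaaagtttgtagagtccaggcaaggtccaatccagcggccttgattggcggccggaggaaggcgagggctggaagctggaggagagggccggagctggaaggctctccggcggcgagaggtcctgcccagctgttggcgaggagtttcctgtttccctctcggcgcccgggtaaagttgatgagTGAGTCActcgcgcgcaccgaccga

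The Smad3 promoter held neither motif, and the Tgfbr2 promoter held 1 AP-1 match near its end. Among all 10 promoters, 1 held a Tcf/Lef match (Tgfbr1) and 1 an AP-1 match (Tgfbr2), beside 13.9% and 3.85% of 22362 promoters. CAGAC matched at Smad2, Smad4 and Skil and TGTGGTT at none of them, beside 40.9% and 4.17% of those promoters. GC content ran from 65.2% at Tgfbr2 and Tgfbr3 to 88% at Ski, above the median of 54% for all promoters.

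Smad2, the other receptor-activated SMAD (chromosome 18, 76401234 to 76465385, plus strand), had the fewest counts of the 10 genes. Its window held 8146 counts over 37.8 kb in WT and 5113 over 38.8 kb in dKO (98.5 and 88.7 CPM), a count ratio of -0.15 (-0.20 to -0.10) and a density ratio of -0.19. The promoter region (76396801 to 76403000) had the largest difference in scaled counts, with 3543 counts over 6.2 kb in WT and 1715 over 5.2 kb in dKO (count ratio -0.53, -0.61 to -0.44, density ratio -0.27). In contrast, the intronic region just downstream had a log2 ratio of -0.03. A second promoter region of Smad2, at an internal start site (76416001 to 76420200), had a count ratio of -0.30 and a density ratio of -0.08. The strongest Smad2 island of dKO alone was intronic (76424401 to 76426800) and had 233 counts.

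Smad4 (chromosome 18, 73798663 to 73863434, minus strand), the common partner of the receptor-activated SMADs, had the lowest log2 ratio of the 10 genes by counts. Its window held 15722 counts over 73 kb in WT and 8612 over 67.4 kb in dKO (190 and 149 CPM), a count ratio of -0.35 (-0.39 to -0.31) and a density ratio of -0.23. The region over the outermost promoter (73861401 to 73882800) had 6260 counts in WT and 3219 in dKO, a count ratio of -0.44 (-0.50 to -0.38). The lowest ratio of the locus was at its 3′ end (73800001 to 73815400), where an internal start site is annotated. There, 3204 counts over 14.8 kb in WT stood against 1167 over 11.8 kb in dKO (-0.94, -1.04 to -0.84, density ratio -0.61). The upstream region next to Elac1 (73897401 to 73916000) was nearly level, at -0.09. Among islands of 1 list alone, the strongest had 331 counts in WT (73817801 to 73821000) and 158 in dKO (73822801 to 73824800), both inside the gene.

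Tgfbr2, the ligand-binding type II receptor (chromosome 9, 115993415 to 116084383, minus strand), lay under wide islands. Its window held 64231 counts over 200.2 kb in WT and 39572 over 222.4 kb in dKO (777 and 686 CPM), a count ratio of -0.18 (-0.20 to -0.16) and a density ratio of -0.33, the lowest density ratio of the 10 genes beside that of Tgfb1. In WT 1 island of 127 kb with 45297 counts, ranked 11 by width among WT islands, ran from 116066201 to 116193200 over the promoter and the upstream stretch. In dKO the promoter lay in an island of 58.6 kb with 14590 counts, and 4 more islands followed upstream. The mean level of the islands that held the promoter was 4.31 CPM per kb in WT and 4.32 in dKO. These islands do not cover the same stretch, since the dKO island reached farther into the gene. The most distant dKO island, from -129 to -40.4 kb of the start site, had 2.57 CPM per kb. Over the whole merged region (116051201 to 116213400) the covered widths were alike, at 160.6 and 159.4 kb, and 54361 counts in WT stood against 30020 in dKO (count ratio -0.34, -0.36 to -0.32). All 3 merged regions of the window had a ratio below 0. The size of the count ratio of Tgfbr2 depended on the window and on islands at its edge. It was -0.89 with the gene body only, -0.76 when most of an island had to lie inside and -0.15 with counts prorated. The density ratios in these settings were -0.17, -0.18 and -0.11.

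Tgfbr1, the type I receptor kinase (chromosome 4, 47366094 to 47427803, plus strand), had a count ratio and a density ratio of opposite sign. Its window held 20957 counts over 109.2 kb in WT and 11985 over 83.2 kb in dKO (254 and 208 CPM), a count ratio of -0.29 (-0.32 to -0.25) and a density ratio of 0.11. Most counts came from a region upstream that is also the promoter of Col15a1 (47258001 to 47356600), where the ratio was 0.08 when the region was counted whole. The gene's count ratio thus depended on how islands at the window edge were counted. It was -0.11 with counts prorated and -0.02 with all merged regions counted whole, with density ratios of 0.16 and 0.06. At the Tgfbr1 promoter region (47359401 to 47367600), 1 WT island of 8.2 kb with 2207 counts faced 3 dKO islands of 5.4 kb with 1183 counts (count ratio -0.38, -0.48 to -0.28, density ratio 0.22). The dKO island at the start site itself was 3 kb wide at 5.33 CPM per kb, whereas the wider WT island had 3.26. Just downstream, a WT island of 779 counts over 6.2 kb (47368401 to 47374600) had no partner in dKO, and the strongest island of dKO alone had 125 counts (47422801 to 47423800).

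Tgfbr3 encodes betaglycan, a co-receptor that presents ligand to the type II receptor. The gene (chromosome 5, 107535589 to 107718648, minus strand) had islands along its whole body, and they were more broken up in dKO. Its window held 39328 counts in 13 islands over 208.2 kb in WT and 22016 in 24 islands over 186.2 kb in dKO (476 and 382 CPM), a count ratio of -0.32 (-0.34 to -0.29) and a density ratio of -0.16. The density ratio equalled the median of all genes at 2 decimals. The mean island was 16 kb wide in WT and 7.76 kb in dKO. The region over the outermost promoter (107687601 to 107728200) had 9929 counts over 40.6 kb in WT and 5334 over 39 kb in dKO (-0.38, -0.43 to -0.33, density ratio -0.32). Regions at internal start sites had count ratios of -0.21 (107617601 to 107637800) and -0.61 (107556401 to 107565200), and density ratios of -0.11 and 0.09. A WT island of 187 counts at the 3′ end had no partner in dKO.

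Tgfb1, the ligand (chromosome 7, 26472021 to 26490096, plus strand), lies in a gene-dense stretch, and B9d2, Bckdha, Exosc5 and Tmem91 also start in its window. The window held 16275 counts over 53 kb in WT and 11295 over 65.8 kb in dKO (197 and 196 CPM), a count ratio of -0.01 (-0.04 to 0.03) and a density ratio of -0.32. The counting interval of the count ratio included 0. The promoter region (26453601 to 26484200) had 8233 counts over 18.4 kb in WT and 5948 over 30.6 kb in dKO. Its count ratio was 0.05 and its density ratio -0.68. Here a narrow WT island of 12.8 kb at 6.93 CPM per kb faced a dKO island of 30.6 kb at 3.37 CPM per kb. The region at the Bckdha and Exosc5 promoters (26442401 to 26448600) had the largest difference in scaled counts of this window, with ratios of -0.32 (-0.42 to -0.22) and -0.70.

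Smad7 (chromosome 18, 75527183 to 75555589, plus strand), the inhibitor that TGF-beta itself induces, lay under 2 wide islands in WT and 1 in dKO. Its window held 71835 counts over 199.8 kb in WT and 47514 over 218.6 kb in dKO (869 and 824 CPM), a count ratio of -0.08 (-0.09 to -0.06) and a density ratio of -0.21. In dKO a single island ran from 75417201 to 75635800 and ranked 3 by width among all dKO islands. In WT the window held an upstream island of 69.4 kb at 3.19 CPM per kb and an island of 130.4 kb over the promoter at 4.96 CPM per kb, which ranked 8 by width. The dKO island had a mean of 3.77 CPM per kb, between both. The merged region reached beyond the window and held 4 WT islands and 2 dKO islands. Counted as a whole, it had 87825 counts over 274.6 kb in WT and 56099 over 275.8 kb in dKO (count ratio -0.13, -0.14 to -0.11).

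Ski (chromosome 4, 154528184 to 154596701, minus strand) and Skil (chromosome 3, 30993980 to 31021499, plus strand) encode related corepressors. The regions over their outermost promoters had count ratios of -0.08 and -0.14. The Ski window held 36989 counts over 130.4 kb in WT and 21727 over 107.8 kb in dKO (447 and 377 CPM), a count ratio of -0.25 (-0.27 to -0.22) and a density ratio of 0.03. Its promoter region (154528601 to 154602800), a single island of 70.8 kb in WT and of 74.2 kb in dKO, had 25819 and 16996 counts (-0.08, -0.11 to -0.06, density ratio -0.15). This island also covers most of the gene body, so its level is a mean that does not single out the promoter. The largest difference in the Ski window was in the far upstream region (154637401 to 154671200), which holds the promoter of Prkcz. There 4478 counts over 33.8 kb in WT stood against 1466 over 16.2 kb in dKO (-1.09, -1.18 to -1.01, density ratio -0.03). Each merged region of the Ski window had a density ratio below 0, from -0.20 to -0.03. Counted whole together they gave -0.03, so the sign of the window's density ratio depended on the counting.

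The Skil window held 12806 counts over 49.2 kb in WT and 9048 over 54.4 kb in dKO (155 and 157 CPM), a count ratio of 0.02 (-0.02 to 0.06) and a density ratio of -0.13. The counting interval of the count ratio included 0. The Skil promoter island had the same borders in both lists (30986601 to 30995200), so counts and counts per kb gave the same ratio. It held 4569 counts in WT and 2884 in dKO, or 6.43 and 5.82 CPM per kb (-0.14, -0.21 to -0.08). Upstream, the regions from -36.6 to -8.18 kb had log2 ratios between -0.01 and 0.04. The strongest dKO island without a WT partner had 226 counts (30951801 to 30954400).

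**Figure D5:**
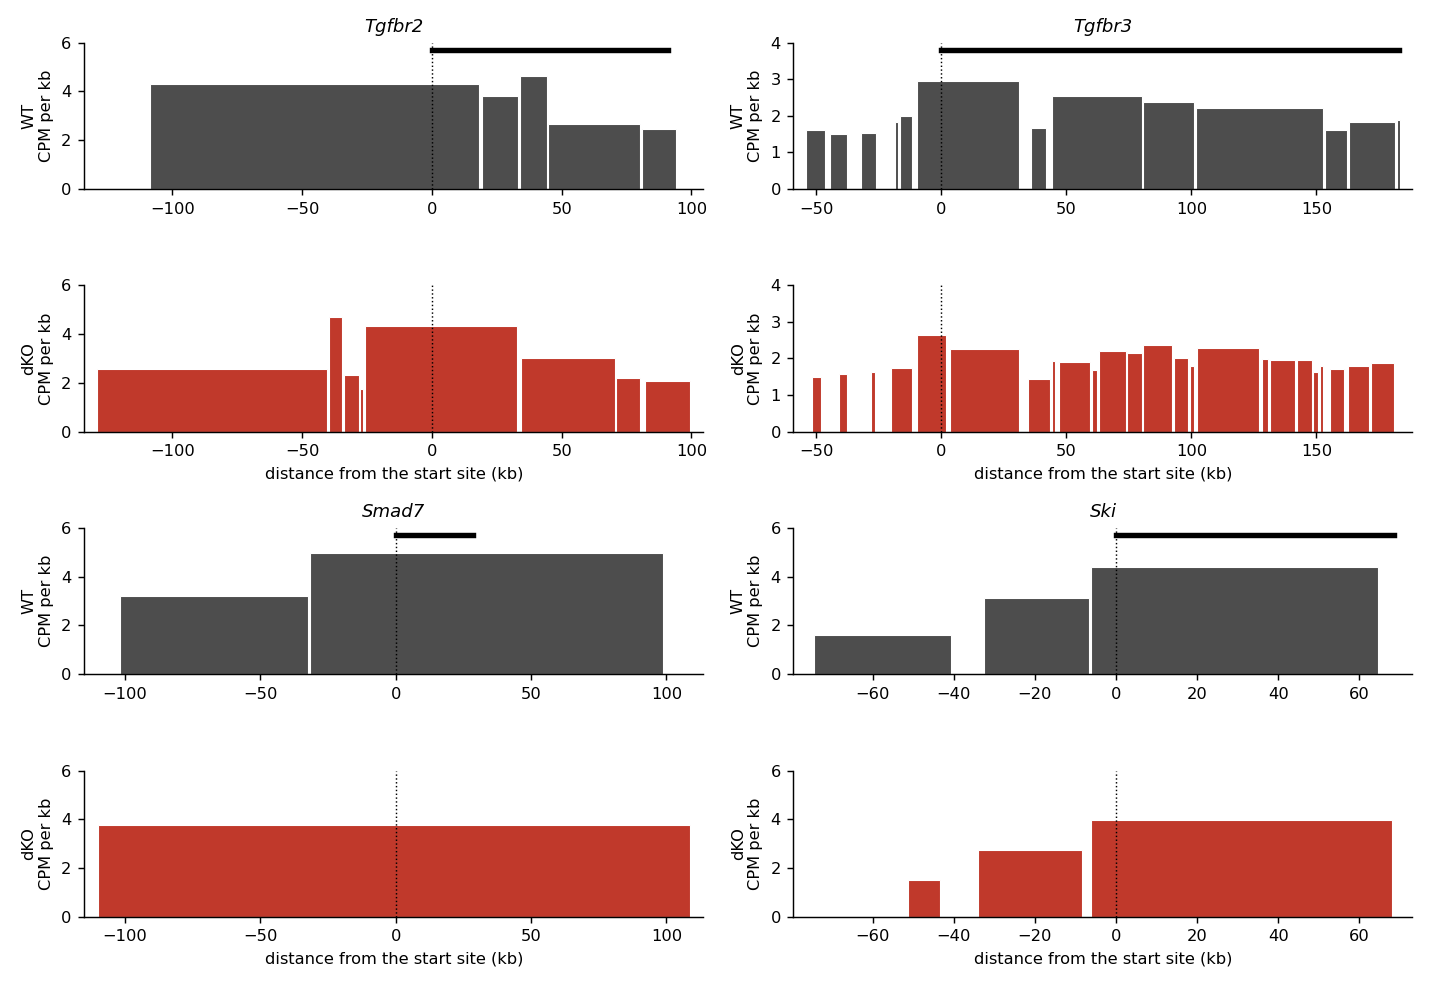
H3K27ac islands over Tgfbr2, Tgfbr3, Smad7 and Ski in the WT list (grey) and the dKO list (red), by distance from the start site in kb, with negative values upstream. The height of a block is the mean level of 1 island in CPM per kb, the black bar is the gene body and the dotted line the start site. The 127-kb WT island at Tgfbr2 and the 13 WT islands at Tgfbr3 correspond to more and narrower dKO islands, whereas Smad7 has a single dKO island of 218.6 kb.

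SEs were also called anew from each list, by stitching islands within 12.5 kb and ranking the stitched regions by counts, without input subtraction. This yielded 1138 SEs in WT and 973 in dKO. The start site lay in an SE for 7 of the 10 genes in WT and for 8 in dKO, beside 27.1% and 34.9% of the 16487 genes. Smad2 and Skil were in none, and Smad4 only in dKO, where the stitched region was 185.8 kb wide against 80.8 kb in WT. Ranks differed in both directions, out of 14376 stitched regions in WT and 12919 in dKO. Smad3 ranked 341 in WT, in a stitched region of 177.2 kb, and 128 in dKO, in one of 407.2 kb. Tgfb1 ranked 956 in WT, in a region of 115.2 kb, and 378 in dKO, in one of 265 kb. The log2 ratio by counts of the stitched regions was higher at Tgfb1 than at Smad3. Smad4 ranked 1605 and 800, Skil 1703 and 1046, and Smad2 2879 and 2404. A better rank in dKO was thus not particular to Smad3. Ski ranked 30 and 273, Tgfbr3 86 and 251, Tgfbr2 17 and 86, Tgfbr1 830 and 951, and Smad7 21 and 23. Stitched regions had different borders in the lists, at Ski 503.2 kb in WT and 316 kb in dKO, so a rank reflects extent as well as level. At Tgfbr2 and Tgfbr3 the stitched regions were of similar extent, at 524.6 and 494 kb and at 478.8 and 433.4 kb, and their log2 ratios by counts were -0.31 in both cases.

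Other genes of the pathway were described in 3 lists, beside which the shares of all genes (11.5% higher and 11.5% lower by counts, 0.425% and 9.28% by density) should be set. Of 24 other ligands, activators and receptors, 21 had islands in both lists, and 2 were called higher and 4 lower by counts, with a median log2 ratio of 0.04. By density 0 were higher and 2 lower, with a median of -0.22. The 2 higher by counts were Eng, which encodes the co-receptor endoglin (16262 counts in WT against 45175 in dKO, count ratio 1.99), and the activin receptor Acvr2a (1804 and 1980, 0.65). At both the covered width was larger in dKO, from 69.6 to 239 kb and from 3.4 to 14.4 kb, and the density ratios were 0.21 and -1.43. The 3 lowest by counts were Acvr1 (1764 and 517 counts, -1.25), the activin subunit Inhbb (1961 and 769, -0.83) and the BMP receptor Bmpr1a (1333 and 599, -0.63). The 2 called lower by density were Acvr2a and the ligand gene Tgfb2, at -0.71. Ltbp1 had no island in either list, Thbs1 had islands in WT alone and Bmpr1b in dKO alone.

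Of 22 other SMADs and SMAD regulators, all had islands in both lists. None was called higher and 3 were called lower by counts, with a median of -0.06, and 0 were higher and 2 lower by density, with a median of -0.25. The 3 lower by counts were the ubiquitin ligase Wwp1 (4297 counts in WT against 1416 in dKO, count ratio -1.08), Fkbp1a, whose product FKBP12 binds the type I receptor (17914 and 6828, -0.87), and the corepressor Tgif2 (13285 and 5926, -0.65). By density their log2 ratios were -0.15, -0.28 and -0.42, all inside the 1.5-fold threshold. The other SMADs, Smad1, Smad5, Smad6 and Smad9, had count ratios between -0.04 and 0.28. The 2 genes called lower by density were Smad9, at -0.74, and the deubiquitinase gene Usp15, at -0.60, and Smad5 had a density ratio of -0.42.

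Of 24 genes known to respond to TGF-beta in T cells, 23 had islands in both lists, and 5 were called higher and 3 lower by counts, with a median of 0.09. By density 0 were called in either direction, with a median of 0.04. The list does not separate genes by the direction of their response, so its medians do not measure the activity of the pathway. The highest by counts were the cytokine Il9 (2667 counts in WT against 5266 in dKO, count ratio 1.501), the cell-cycle inhibitor Cdkn1a (3849 and 7398, 1.46) and the chemokine receptor Ccr8 (10828 and 19426, 1.36). The density ratios were 0.01, 0.04 and 0.39. Gzma (4995 and 6381, 0.87) and Gzmb (8733 and 9435, 0.63) were also called higher by counts, with 0.37 and 0.44 by density. The lowest were the BMP and TGF-beta target Id1 (14832 and 3128, -1.73), Il2 (7891 and 3579, -0.62) and the interleukin-7 receptor gene Il7r (18981 and 8726, -0.60), with -0.53, -0.15 and -0.37 by density. Itgae, which encodes the CD103 integrin chain of resident T cells, had a count ratio of 0.21 and a density ratio of 0.05. Cdkn2b had an island in WT alone.

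The cell type was checked with marker genes. All 8 CD8 T cell markers, Cd8a and Cd8b1 among them, had promoter islands in both lists, summing to 2347 CPM in WT and 1733 CPM in dKO. An island that spans neighbouring promoters was counted for each. Islands that touched a promoter were counted whole, so these sums also change where islands are wider or broken up. Cd8a, for example, had 29951 promoter counts in WT and 7778 in dKO, with a window count ratio of -0.26. Markers of other cells also had promoter islands: 4 of 4 B cell markers in both lists (284 and 380 CPM), 2 of 3 NK cell markers in both (152 and 216 CPM), 3 of 3 monocyte markers in both (28.6 and 18.3 CPM), and 4 of 4 CD4 and regulatory T cell markers in both (76.6 and 312 CPM). Of the 3 granulocyte markers, 1 had a promoter island in WT and 3 in dKO (12.4 and 80.3 CPM), and of the 3 dendritic cell markers 2 in WT and 1 in dKO (15 and 3.03 CPM). The NK marker Ncr1 and the dendritic cell marker Siglech had no island in either list. Among the CD4 and regulatory T cell markers, Foxp3 had 958 promoter counts in WT and 6938 in dKO, and Il2ra 501 and 6633. Their window count ratios were 0.42 and 0.30, and their density ratios -0.43 and 0.05. Cd4 had 1168 and 1730 promoter counts, and Zbtb7b 3706 and 2689. The part of other cells in the ratios above was not tested. None of the 10 genes lies on chromosome X, whose median log2 ratio was -0.62 by counts, and the 3 on chromosome 18 lie on the autosome with the lowest median, -0.13.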

How the data were processed

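H3K27ac ChIP-seq was performed on 4 WT and 3 dKO samples, with 1 input each, 9 samples in all. According to the study's methods and the submitters' processing notes, the authors checked reads with FastQC, aligned them to mm9 with Bowtie2 2.2.5, kept uniquely mapped reads of mapping quality above 10, pooled the replicates and called islands with SICER 1.1, at a window of 200 bp, a gap of 400 bp and an FDR of 0.01. How duplicate reads were treated is not given in the sources used here. The authors deposited 1 list per genotype with a raw read count per island, not scaled for depth or width. A stretch without an island has no count. The input samples entered only through the island calling.

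The members and the gene lists were chosen with earlier results of these data known. Island counts were summed over gene windows of the GENCODE vM1 annotation of NCBIM37, which is mm9, with Python 3.11.15, NumPy 2.4.6 and SciPy 1.17.1. One list gene, Ldlrad4, was matched through a RefSeq synonym. Intervals are exact Clopper-Pearson intervals at 95%. They cover counting error only, because the replicates were pooled before islands were called. The reads carry no molecular identifiers and need not stand for separate molecules, so the intervals may be too narrow even for counting error. With 1 pooled list per genotype no p-value was computed. Sums and merging were checked on 50 simulated lists. Genes named were the 10 members with the regions over their promoters, the regions with the most counts and the largest difference, and the strongest islands of 1 list alone. From each pathway list up to 3 genes per direction past 1.5-fold and with a summed count of 500 or more over the lists were named. Other list genes, and Aagab and Iqch, were named after their values were seen. Positions of the study's accessible sites and SE were read from its lists, and their starts were taken as counted from 0. Island positions are given counted from 1. Alternatives changed the window, the overlap rule, the island filter, the scaling, the fold called, the joining of islands and pseudocounts. Merged regions counted whole were added after seeing the data.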

Additional observations from a re-analysis of the deposited data

How the results depend on the processing

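No paired analysis was possible because the replicates were pooled before islands were called, and for the same reason no replicate could be left out. Smad3 stayed above 0 by counts under all 13 alternatives (0.55 to 0.91) and by counts per kb under all 12 (0.27 to 0.71). By counts per kb it was not always the highest of the 10 genes. Tgfbr1 was level with Smad3 with the gene body only (0.388 against 0.385). With promoter islands only Tgfbr1 was above Smad3 (0.71 against 0.27). Whether it was called depended on the setting. By counts 1 of 10 genes, Smad3, was called higher with the gene body only, with 10 kb upstream, with promoter islands only, with islands of at least 200 counts, with both the shared-region and the median scaling, at a lower fold (0.32 on the log2 scale) and with islands within 2 kb joined, settings that called 11.4% to 21.4% of all genes higher. By counts per kb, 1 gene was called higher with islands of at least 200 counts, with both scalings and at the lower fold (Smad3), and with promoter islands only (Tgfbr1), where 0.716% to 2.12% of all genes were called higher. By counts, 3 of 10 genes were called lower with the gene body only (Tgfbr1, Tgfbr2 and Smad4, beside 15% of all genes). With 10 kb upstream there were 2 (Tgfbr2 and Smad4, 13.4%). With promoter islands only there were 5 (Tgfbr1, Tgfbr2, Tgfbr3, Smad2 and Smad4, 20%). When most of an island had to lie inside there was 1 (Tgfbr2, 12%). At the lower fold there was 1 (Smad4, 24.2%), and with islands joined there were 2 (Tgfbr2 and Tgfbr3, 11.7%). By counts per kb, 1 was called lower with the gene body, with 10 kb upstream and with promoter islands only (Tgfb1 each time, beside 15.1%, 12.9% and 17.4% of all genes) and 1 at the lower fold (27.4%). The median of the 10 genes by counts moved to -0.44 with promoter islands only, beside -0.23 for all genes. With counts prorated it was -0.13 (all genes -0.03), and with islands of at least 200 counts -0.13 (-0.02). It was -0.10 with the shared-region scaling (all genes 0.05) and -0.047 with islands joined (0.01). By counts per kb the median of the 10 genes moved to -0.048 with islands of at least 200 counts (all genes -0.049). It was -0.10 with the shared-region scaling (all genes -0.09), -0.0096 with the median scaling (0) and -0.14 with merged regions counted whole (-0.16). The sign by counts held under every alternative for Tgfbr2, Tgfbr3, Smad2, Smad3 and Smad4, and changed under at least 1 alternative for the others. With most of an island required inside, Smad7 had no island and no value. The cause of these changes was not tested. Promoter islands are broken at different places in the lists, so the promoter setting compares different stretches, as at Tgfbr3, where it gave -1.84 by counts over 69.6 kb in WT and 22.6 kb in dKO.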
